A study of Mus musculus with 11 samples.

Results

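The cornified envelope is the protein shell that replaces the plasma membrane of a keratinocyte in the outermost skin. Its scaffold and the enzymes that cross-link it were measured here as 10 genes, 4 transglutaminases (Tgm1, Tgm2, Tgm3 and Tgm5) and 6 substrates or scaffold proteins (Ivl, Lor, Evpl, Ppl, Cnfn and Scel). They were chosen by name, all 10 were found among the 20352 genes of the array, and no filter on low values was applied. Transglutaminases join glutamine to lysine side chains, with calcium as cofactor. Envoplakin and periplakin, then involucrin, are laid down first under the membrane at the desmosomes, and loricrin is added late as the bulk of the mature envelope. Tgm1 sits at the membrane and is the enzyme lost in lamellar ichthyosis, Tgm3 is a soluble proenzyme of the upper epidermis and hair follicle, and Tgm5 acts in the upper epidermis. Tgm2, tissue transglutaminase, is expressed mainly by endothelium, smooth muscle, fibroblasts and macrophages.

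The data were 11 tissue pieces on 11 single-colour arrays. The 5 keratoacanthomas, squamous tumours of keratinocytes, were all from K14-Cre;Zmiz1 double transgenic mice. The 6 normal skins comprised 2 of that genotype (skins 1 and 2), 2 with K14-Cre only (skins 3 and 4) and 2 with the Zmiz1 transgene only (skins 5 and 6). K14-Cre expresses Cre recombinase from the keratin 14 promoter, which is active in basal keratinocytes, and Zmiz1 encodes a transcriptional co-activator of the PIAS family. Strain, age and time of tumour growth are not given in the sources used here, nor whether each piece was from a separate animal, so p-values measure the spread between these pieces. Values are log2 and a gene level is the median over the gene's probesets, groups of probes for 1 stretch of a gene.

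Whole-tissue features moved with the comparison. Array medians lay between 6.22 and 6.27, and Zmiz1 itself was higher in tumours by 0.65 (SE 0.14, limma adjusted p = 0.0045). A list of 10 keratinocyte markers averaged 10.002 to 10.140 in the tumours and 9.004 to 9.77 in the skins. Of the 10 genes 4 were higher and 1 (Krt15) lower, where 14.5% of all genes were higher and 10.8% lower. Keratinocyte markers were thus measured in both groups. All 10 markers of striated muscle were lower, their mean level running from 5.66 to 7.41 in tumours and from 10.5 to 11.7 in skins. Hair follicle markers were high in tumour 4 (list mean 8.57), skin 1 (9.67) and skin 3 (9.32) and lay between 5.83 and 6.30 in the remaining arrays. Of 17 hair follicle genes 0 were called by limma, and 0 had an unadjusted p below 0.05, where 36.7% of all genes did. In whole tissue, fewer cells of a type and less RNA per cell cannot be told apart.

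In keratoacanthoma, the epidermal cross-linking enzymes Tgm1 and Tgm3 and the envelope proteins Ivl and Cnfn rose, by 3.50-fold to 4.36-fold, and Lor fell 1.70-fold. The other 5 genes did not pass the test. Thus 4 of 10 were higher and 1 lower (limma, adjusted p below 0.05), where 14.5% of all 20352 genes were called higher, 10.8% lower and 25.3% either way. The median difference over the 10 genes was -0.07 and over all genes -0.04. The 5 tumours lay entirely above the 6 skins for the same 4 genes and entirely below them for Lor; of all genes, 9.66% separated upward and 6.31% downward.

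**Figure D1:**
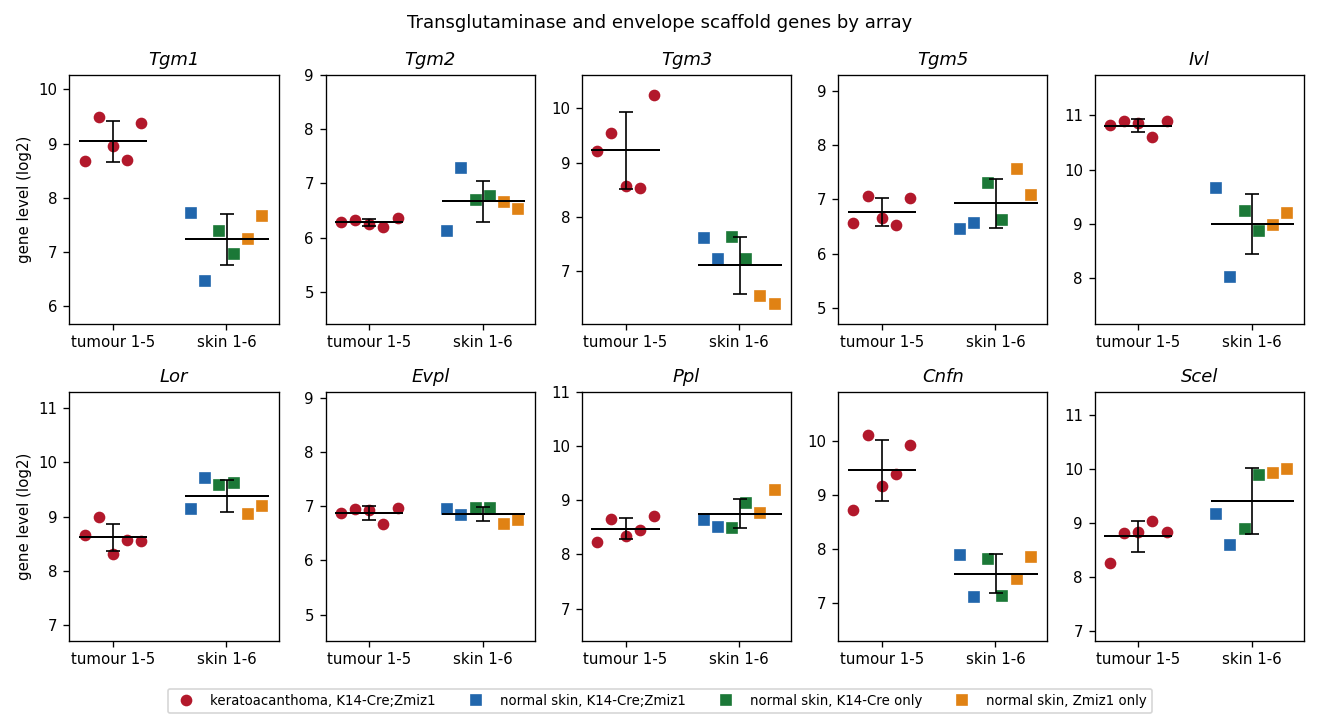
Gene level (log2, y axis, each panel spanning the same number of log2 units around its own centre) of the 10 genes in the 5 keratoacanthomas (red circles) and the 6 normal skins (squares, coloured by genotype), with arrays in label order from left to right; horizontal lines are group means and bars SD. Tgm1, Tgm3, Ivl and Cnfn lie higher in every tumour than in any skin, Lor lower, and the other 5 overlap.

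Among the enzymes, Tgm1 stood at 8.68, 9.49, 8.95, 8.70 and 9.39 in tumours 1 to 5. In normal skin it was 6.45 at the lowest, 7.30 at the median and 7.72 at the highest. Every tumour was thus higher than every skin, with tumours 2 and 5 the highest. Tgm1 rose by 1.81 (SE 0.23, adjusted p = 0.00012 by limma), or 3.50-fold with a 95% interval of 2.48-fold to 4.94-fold. A permutation test, exact and two-sided, gave p = 0.0043, the smallest that 5 against 6 arrays allow.

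Tgm3 showed the largest difference of the 10 genes and also the widest spread between tumours. Its level was 9.22, 9.55, 8.57, 8.53 and 10.25 in tumours 1 to 5, against 6.39, 7.22 and 7.62 (lowest, median, highest) in skin. Groups did not overlap, although the tumours spanned 1.72 and the skins 1.23. The difference was 2.12 (SE 0.32, adjusted p = 0.00040), a 4.36-fold rise. Both Zmiz1-only skins were the lowest, at 6.53 and 6.39, and the other 4 skins lay between 7.21 and 7.62. Hair follicle also expresses Tgm3, and without the 3 arrays high in hair keratins the difference was 2.56 (adjusted p = 0.00040).

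Tgm5 did not pass the test. It stood at 6.57, 7.07, 6.66, 6.52 and 7.03 in tumours and at 6.45, 6.85 and 7.56 (lowest, median, highest) in skin, so that the tumours lay within the range of the skins. The difference was -0.16 (95% interval -0.60 to 0.29, adjusted p = 0.62). Against the 2 skins of the same genotype alone it was 0.27 (95% interval -0.23 to 0.77). Those skins were the lowest genotype on average (6.50), below K14-Cre only (6.95, with skin 3 at 7.30) and Zmiz1 only (7.33).

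Tgm2 was lower in every tumour than in 5 of the 6 skins. It read 6.28, 6.33, 6.25, 6.20 and 6.36 in tumours, a range of 0.16, and 6.12, 6.67 and 7.29 (lowest, median, highest) in skin. Skin 1 was the lowest array of all, which is what made the groups overlap. The difference was -0.39 (SE 0.16, adjusted p = 0.097; exact permutation p = 0.030) and did not pass; without skin 1 it was -0.50 (adjusted p = 0.018), and without the 3 arrays high in hair keratins -0.51 (0.048). Without skin 2, the highest, it was -0.27 (0.14), and with the keratinocyte marker list as covariate it turned to 0.28 (0.43). With the mean over probesets in place of the median it was -0.74 (adjusted p = 0.00038). Markers of cell types that carry Tgm2 went several ways, where 14.5% of all genes were higher and 10.8% lower. Of 8 endothelial genes 2 were higher and 2 lower. Lower were 2 of 8 macrophage, 4 of 6 fibroblast and 2 of 5 smooth muscle genes, none of these 3 lists having a gene higher. Mean levels for endothelium were 6.22 to 6.67 in tumours and 6.30 to 6.56 in skins. In the same order they were 5.99 to 7.10 and 6.95 to 7.97 for macrophages and 7.30 to 8.60 and 8.89 to 9.71 for fibroblasts. For smooth muscle they were 6.54 to 7.04 and 6.84 to 7.44. The part of these cell types in the Tgm2 value was not tested.

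The unequal change of the enzymes was tested within arrays, as the difference of 2 log2 levels on the same array. Over the 7 gene pairs examined, p-values were adjusted by Benjamini-Hochberg. The Tgm1 minus Tgm2 difference was larger in tumours by 2.20, Tgm1 minus Tgm5 by 1.96 and Tgm3 minus Tgm5 by 2.28, each with every tumour above every skin (exact permutation p = 0.0043, adjusted p = 0.0061). The ranges of the single genes already fixed this separation in each of these pairs. The p-values thus add nothing to the single-gene results of Tgm1 and Tgm3. Tgm1 minus Tgm3 differed by -0.32 (exact p = 0.44), a difference of -0.91 (adjusted p = 0.015) with the mean over probesets. Of the relatives outside the 10 genes (Tgm4, Tgm6, Tgm7, F13a1 and Epb42), 1 of 5 passed, where 25.3% of all genes did. It was F13a1, the coagulation factor of macrophages and platelets, which fell by 1.86 (limma adjusted p = 0.0019). Tgm6, which lies close to Tgm3 on the chromosome, differed by -0.04 (adjusted p = 0.94), and Tgm7, next to Tgm5, by -0.63 (0.055).

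The early scaffold gene Ivl and the late one Lor moved in opposite directions. Involucrin, a glutamine-rich rod that Tgm1 attaches under the membrane, stood at 10.82, 10.90, 10.86, 10.60 and 10.89 in tumours 1 to 5, and at 8.01, 9.08 and 9.65 (lowest, median, highest) in skin. The tumours were nearly uniform, with a range of 0.30, whereas skins spanned 1.65 with skin 2 the lowest. The rise was 1.83 (SE 0.22, adjusted p = 9.2e-05), or 3.54-fold, and rests on 1 probeset. Loricrin, a glycine-rich protein, stood at 8.66, 8.99, 8.31, 8.56 and 8.55 in tumours and at 9.04, 9.38 and 9.71 (lowest, median, highest) in skin, so that the highest tumour came just under the lowest skin. Lor fell by 0.77 (SE 0.16, adjusted p = 0.0029), over 2 probesets of which the brighter passed alone (-0.85, adjusted p = 0.0062) and the dimmer did not (-0.68). The Ivl minus Lor difference rose by 2.59 within arrays (exact permutation p = 0.0043, adjusted p = 0.0061). Each gene alone already separated the groups completely, in opposite directions. The outcome of this test was thus fixed, and it adds nothing to the 2 single-gene results.

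The stretch before the start of 7 of the 10 genes could be read from RefSeq (GRCm38.p6, 8 windows of 250 bases; Tgm1 has 2 starts). Shown are those of Ivl and Lor, which moved oppositely, and of Tgm3 and Cnfn, which rose; capitals mark AP-1 sites (TGANTCA) and TATA boxes (TATAAA), searched on both strands. They lie at chr3:92573736-92573985 (minus strand) for Ivl, chr3:92083143-92083392 (minus strand) for Lor, chr2:130012090-130012339 (plus strand) for Tgm3 and chr7:25369725-25369974 (minus strand) for Cnfn, each printed 5′ to 3′ on the gene's strand and ending just before the start.
Ivl: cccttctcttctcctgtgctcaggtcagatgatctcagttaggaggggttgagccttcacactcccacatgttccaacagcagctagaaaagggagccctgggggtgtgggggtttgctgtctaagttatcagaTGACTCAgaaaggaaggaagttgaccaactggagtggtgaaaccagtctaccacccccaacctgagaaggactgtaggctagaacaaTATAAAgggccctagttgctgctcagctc
Lor: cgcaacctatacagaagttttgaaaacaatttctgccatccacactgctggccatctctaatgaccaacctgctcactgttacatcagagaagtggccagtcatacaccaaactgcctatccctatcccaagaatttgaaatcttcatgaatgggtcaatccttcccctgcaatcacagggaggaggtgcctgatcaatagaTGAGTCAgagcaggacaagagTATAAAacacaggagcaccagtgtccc
Tgm3: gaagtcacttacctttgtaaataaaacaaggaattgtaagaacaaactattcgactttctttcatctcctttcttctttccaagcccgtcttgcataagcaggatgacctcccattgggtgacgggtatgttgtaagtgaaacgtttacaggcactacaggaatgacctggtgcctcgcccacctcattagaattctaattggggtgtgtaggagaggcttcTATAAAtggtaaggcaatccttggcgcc
Cnfn: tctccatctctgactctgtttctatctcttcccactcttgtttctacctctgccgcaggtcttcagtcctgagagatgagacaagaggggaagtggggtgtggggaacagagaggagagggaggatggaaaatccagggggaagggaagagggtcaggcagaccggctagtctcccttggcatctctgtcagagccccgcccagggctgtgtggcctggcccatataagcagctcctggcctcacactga
Ivl and Lor each hold 1 AP-1 match, 116 and 48 bases before the start, and 1 TATA box, 29 and 27 bases before it. Tgm3 holds a TATA box at 28 bases and no AP-1 match, and Cnfn holds an exact match to neither. Near variants of the motifs were not searched. Scel, not shown, also holds an AP-1 match, at 36 bases. So 3 of the 8 windows, from 3 of the 7 genes, hold each motif. Of all 32851 RefSeq windows of this length, 6.75% hold AP-1 and 12.4% hold TATAAA. A GC box (GGGCGG) and a CACCC box (CACCC), also searched on both strands, were in 2 and 6 of the 8 windows, where 32.7% and 52.0% of all windows hold them. Both members with AP-1 and a TATA box, Ivl and Lor, changed in opposite directions. These are letter matches and not measured binding.

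Ivl and Lor lie in the epidermal differentiation complex, a cluster of envelope and S100 genes on mouse chromosome 3. Of its 60 measured protein-coding genes from S100a1 to S100a10, 26 (43.3%) were higher and 11 (18.3%) lower, with a median of 0.47, where 14.5% and 10.8% of all genes were. Next to Ivl, Sprr4 differed by 0.30 (adjusted p = 0.73) and Smcp rose by 1.52; the next Sprr gene, Sprr1a, rose by 1.99. Next to Lor, Pglyrp3, a peptidoglycan recognition protein, rose by 1.01 and Prr9 differed by 0.97 without passing (adjusted p = 0.28). Lor thus fell beside a neighbour that rose, and Lce1b, Lce1m and Flg2 of the same complex also fell (by 1.19, 1.41 and 2.16). Relatives of these genes in the complex rose, among them Lce1f (1.94), Lce1g (0.98), Lce3b (5.05) and Flg (2.19).

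**Figure D2:**
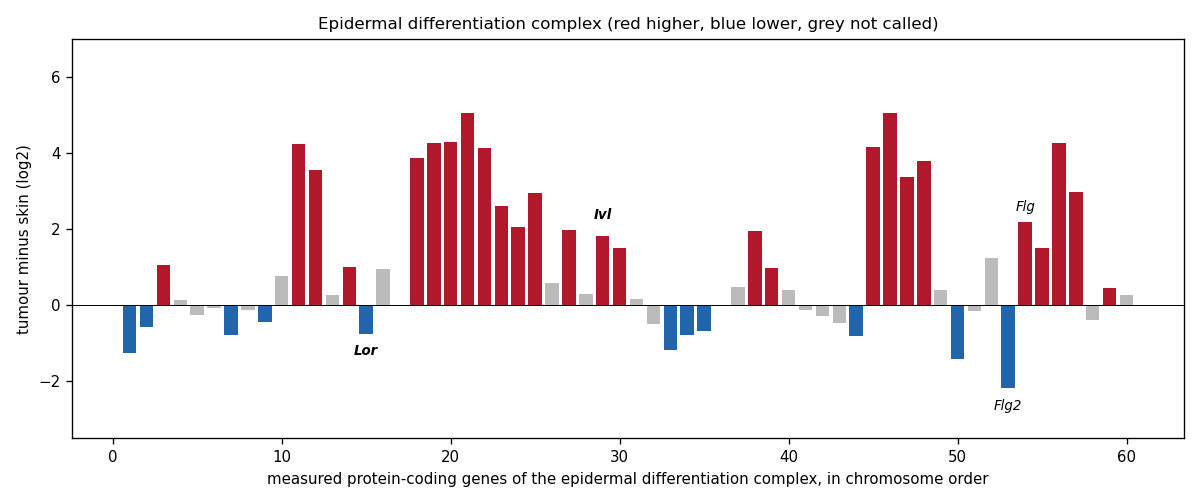
Log2 difference of keratoacanthoma from normal skin (y axis) for the 60 measured protein-coding genes of the epidermal differentiation complex in chromosome order (x axis, positions not to scale); red bars are higher and blue bars lower with limma adjusted p below 0.05. Ivl lies between Sprr4, which was not called, and Smcp, which is higher, and Lor is lower next to Pglyrp3, which is higher.

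Neither plakin of the scaffold passed the test. Envoplakin (Evpl), which dimerises with periplakin at desmosomes, was 6.89, 6.94, 6.93, 6.67 and 6.96 in tumours and 6.67, 6.89 and 6.98 (lowest, median, highest) in skin, and the groups overlapped over nearly their whole range. Its difference was 0.02 (95% interval -0.19 to 0.23, adjusted p = 0.91). Periplakin (Ppl) was 8.23, 8.65, 8.35, 8.46 and 8.71 in tumours and 8.49, 8.70 and 9.19 in skin, 0.28 lower without passing (95% interval -0.59 to 0.03, adjusted p = 0.18). Skin 6 was the highest and tumours 2 and 5 lay inside the range of the skins. The Evpl minus Ppl difference changed by 0.30 (exact permutation p = 0.12, adjusted p = 0.14).

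Cornifelin (Cnfn), a small cysteine-rich envelope protein, rose with Ivl. It stood at 8.72, 10.1, 9.17, 9.38 and 9.92 in tumours 1 to 5 and at 7.12, 7.64 and 7.90 (lowest, median, highest) in skin. The lowest tumour was 1, and it still exceeded all skins. The rise was 1.91 (SE 0.24, adjusted p = 0.00012), or 3.76-fold. Sciellin (Scel), an envelope precursor with a LIM domain, went the other way, at 8.25, 8.81, 8.83, 9.03 and 8.84 in tumours and 8.59, 9.52 and 10.002 in skin. It was 0.66 lower without passing (SE 0.26, adjusted p = 0.081; exact permutation p = 0.078), and the 2 groups overlapped through skins 2 and 3. Without skin 2 the difference was -0.82 and passed (adjusted p = 0.021), as it did without the 3 arrays high in hair keratins (-0.92, 0.048) and with the mean over probesets (-0.68, 0.046). Without tumour 1 it was -0.53 (0.18), without skin 4, 5 or 6 between -0.56 and -0.54 (0.15 in each), and against the 2 skins of the same genotype -0.12 (0.80). The Cnfn minus Scel difference rose by 2.57 within arrays (exact permutation p = 0.0043, adjusted p = 0.0061). The ranges of the single genes already fixed this outcome, so the test adds nothing to the Cnfn result and is no support for a fall of Scel.

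Single probesets showed what the gene medians averaged. Of 148 probesets of the 10 genes, 30 were higher and 21 lower after adjustment over all 211507 probesets, 20.3% and 14.2% where 8.29% and 6.98% of all were called; probesets of a gene share its RNA and are not independent. All 5 probesets of Cnfn, 13 of 16 of Tgm1 and 11 of 13 of Tgm3 were higher. The 3 Tgm1 probesets that did not pass are the last by number, the largest of the differences among the 16 being 2.65. In Tgm3 the differences ran from 0.55 to 3.41 and all were positive.

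Tgm2 and Scel had more lowered probesets than their gene levels show. All 14 Tgm2 probesets were lower in tumours, 6 of them past the threshold, and the first 5 by number were all called, with differences of -1.34, -0.99, -1.69, -0.73 and -0.94. The probeset with the largest of these averaged 7.34 in tumours and 9.03 in skins, with no overlap. In skin the called Tgm2 probesets were the brighter ones, averaging 7.49 to 9.13, and those not called averaged 4.13 to 6.85. In Scel 33 of 34 probesets were lower and 12 passed, the largest difference being -1.28 (adjusted p = 0.0023). Of Tgm5 1 of 15 probesets passed (lower by 0.80), and of Ppl 1 of 24 (lower by 0.69). Of the 24 Ppl probesets 18 were lower, and 6 in either direction had an unadjusted limma p below 0.05. For Evpl limma called 0 of 24, with 3 at an unadjusted p below 0.05.

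**Figure D3:**
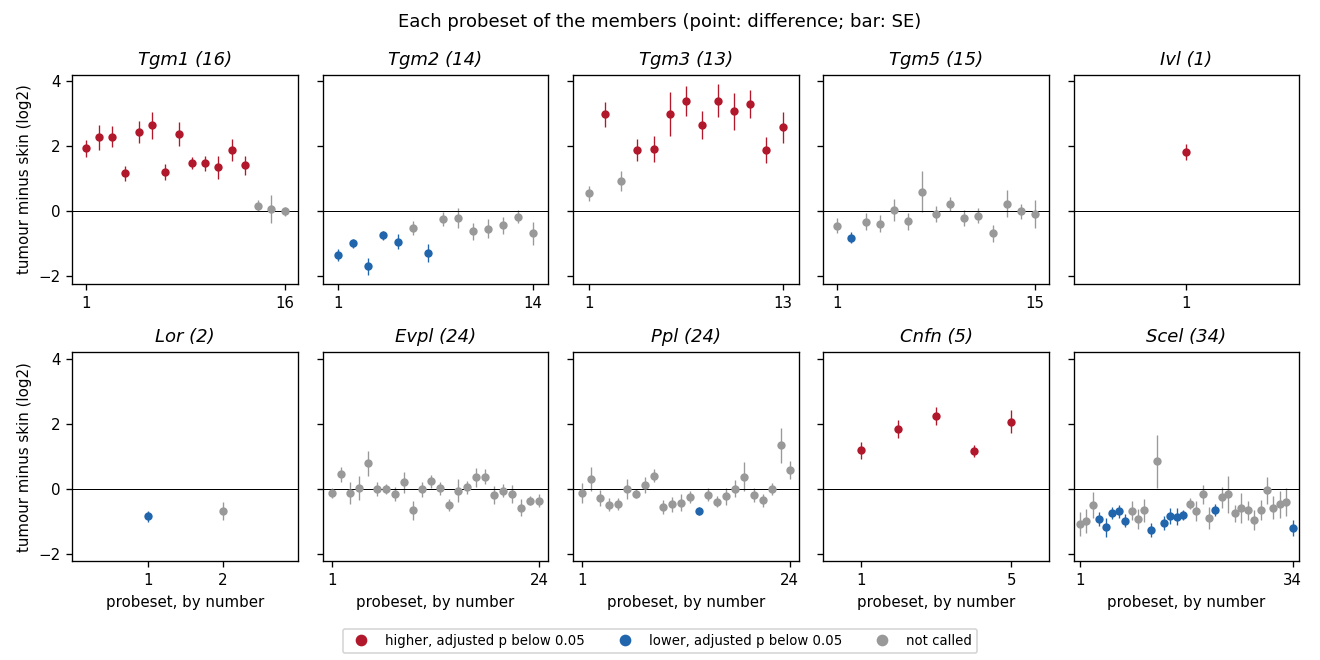
Log2 difference of keratoacanthoma from normal skin (y axis) for every probeset of the 10 genes, in order of probeset number (x axis; the number of probesets follows the gene name); bars are SE. Tgm1, Tgm3, Ivl and Cnfn hold the 30 probesets called higher, and the 21 called lower are mostly in Scel (12) and Tgm2 (6).

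With the genotype held equal, by setting the tumours against the 2 normal double transgenic skins in a model of 4 groups, the same 4 genes were higher and Lor lower (limma; of all genes, 10.6% were higher and 6.93% lower). Ivl differed by 1.98 (adjusted p = 0.0032), Tgm1 by 1.95 (0.0038), Cnfn by 1.95 (0.0059), Tgm3 by 1.81 (0.011) and Lor by -0.81 (0.017). Scel, a gene with high values in the Zmiz1-only skins, differed by -0.12 (95% interval -0.73 to 0.48). These calls leaned on skin 2: with skin 1 as the only array of that group, whose spread is then assumed to equal that of the others, Ivl passed at 1.16, and Tgm1 (1.32, adjusted p = 0.058), Cnfn (1.56, 0.092), Tgm3 (1.61, 0.13) and Lor (-0.53, 0.21) did not. Without skin 1, Tgm2 was called as well (-1.01, adjusted p = 0.0013). With array weights Tgm3 (1.81, adjusted p = 0.077) and Lor (-0.81, 0.089) did not pass. The tumours and the 2 skins are also part of the comparison with all skin.

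Genotype without a tumour gave no call among the 10 genes. Between normal double and single transgenic skin limma called 0 of 10 and 3 of 20352 genes (0.0147%; 0.00983% higher and 0.00491% lower), with 2 of the 10 (Scel and Tgm5) and 10.2% of all genes at an unadjusted p below 0.05. Scel averaged 8.87 in the 2 double transgenic skins, 9.39 with K14-Cre only and 9.96 with Zmiz1 only, and was 0.80 lower in double than in single transgenic skin (95% interval -1.43 to -0.18, adjusted p = 0.42). Tgm5 averaged 6.50, 6.95 and 7.33 in the same order, a difference of -0.64 (95% interval -1.15 to -0.12, adjusted p = 0.43). Without skin 1, Ivl was called lower in double transgenic skin, with a difference of -1.06 (adjusted p = 0.033), from skin 2 alone.

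Fitting the keratinocyte marker list as a covariate changed the calls. The list was itself higher in tumours and its mean had a Pearson r of 0.82 with group membership over the 11 arrays, given as a description. Under it 873 genes (4.29%) were called. Tgm3 remained higher, by 2.39 (SE 0.58, adjusted p = 0.041). Cnfn differed by 1.57 (adjusted p = 0.064), Tgm1 by 1.05 (0.097) and Ivl by 0.87 (0.058), each still higher but not called. Lor differed by -0.31 (0.52), Scel by -1.46 (0.052), and Tgm2 turned to 0.28 (0.43).

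**Figure D4:**
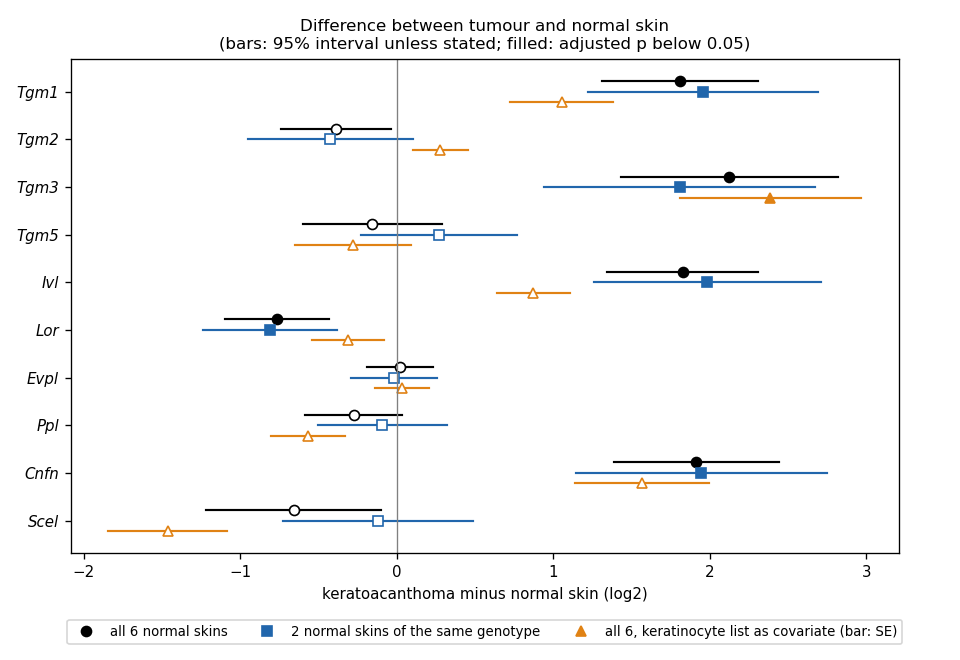
Log2 difference of keratoacanthoma from normal skin (x axis) for the 10 genes against all 6 skins (black circles), against the 2 skins of the same genotype (blue squares), both with 95% intervals, and with the keratinocyte list as covariate (orange triangles, bars SE); filled symbols have limma adjusted p below 0.05. Tgm1, Tgm3, Ivl, Cnfn and Lor are filled with both references, and Tgm3 alone is filled with the covariate.

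Genes that work with the scaffold were read from lists assembled with earlier results of these data known. Of 23 envelope partners, 12 were higher and 3 lower, with a median of 0.45 beside -0.04 for all genes. For these and the following lists, 14.5% of all genes were higher and 10.8% lower. Repetin (Rptn), an envelope precursor of the S100-fused family, rose by 4.27, the protease inhibitor Serpinb2 by 2.84, filaggrin (Flg) by 2.19 and keratin 1 (Krt1) by 0.97; the suprabasal keratin Krt77 fell by 2.60 and filaggrin 2 (Flg2) by 2.16. Among small proline-rich and late envelope substrates, 12 of 14 Sprr genes were higher and none lower, and 6 of 18 Lce genes were higher and 5 lower; their members are alike in sequence and may share signal. Of 8 genes for the proteases that cut transglutaminase proenzymes and their inhibitors, 3 were higher, namely cathepsin L (Ctsl, 0.95), cathepsin D (Ctsd, 0.87) and the calpain Capn2 (0.74). Cystatin M/E (Cst6), an inhibitor of cathepsin L, differed by -0.17 (adjusted p = 0.80).

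Genes of the lipid coat that is bound to the envelope were also read. Of 14 measured, 11 were higher and none lower (median 1.04), among them the lipase Lipn (3.21), the glucosylceramide synthase Ugcg (1.97), the acylceramide transacylase Pnpla1 (1.35) and its cofactor Abhd5 (1.04). Of 22 transcriptional and calcium regulators of envelope genes, 7 were higher and 2 lower (median 0.12), where 14.5% of all genes were higher and 10.8% lower. The NRF2 gene Nfe2l2 rose by 1.04, grainyhead-like Grhl3 by 1.00, Ovol1 by 0.98 and Prdm1 by 0.80, and Ppara and the calcium-sensing receptor Casr fell by 0.63 and 0.39. Against skin of the same genotype, 12 of the 14 lipid genes were higher and none lower, and 11 of the 23 envelope partners were higher and 3 lower. Of the 22 regulators 4 were higher and none lower, and of the 8 genes for proteases and inhibitors 2 were higher and none lower. Among the genes named from these last lists, Ppara, Ctsd, Prdm1 and Casr did not pass there (limma adjusted p = 0.054, 0.063, 0.079 and 0.24). In that comparison 10.6% of all genes were higher and 6.93% lower. The AP-1 genes on the regulator list, Jun, Junb, Jund, Fosl1 and Fosl2, differed by -0.05, 0.41, -0.03, 0.09 and 0.05. None of them passed (limma adjusted p from 0.10 to 0.93), and other AP-1 genes are not reported here.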

How the data were processed

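Total RNA from snap-frozen tissue was amplified and hybridised as biotin-labelled cDNA, 1 array for each of the 11 samples. The authors deposited log2 values of 241576 probesets; the submitters' processing notes name RMA, Partek and the build mm9, with versions and settings not given in the sources used here. The deposited normalization was kept. Of the probesets, 212097 name 1 gene in the platform annotation, 4475 several (not used) and 25004 none; 590 with values identical to another of the same gene were dropped, and 2742 of 20416 symbols were updated through RefSeq. Gene levels are medians over probesets.

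Groups were compared with limma 3.58.1 in R 4.3.3 (lmFit, eBayes, Benjamini-Hochberg over all genes or all probesets, called below 0.05), and single measures by exact permutation tests in SciPy 1.17.1. Intervals are at 95%. The limma step was tested on simulated data in which 200 of 20352 genes were changed. It called 20.3% of genes changed by 0.5, 78.3% at 1, 100% at 2 and 0.0397% of the unchanged. Small changes were thus often missed there. In the real data 5159 genes were called, so these shares do not carry over exactly. All 10 genes are named, with at most 4 called genes per list plus 2 in the opposite direction, and the 2 nearest genes of each called member; AP-1 and Lce genes, chromosome neighbours, uncalled relatives, Cst6 and Zmiz1 were chosen after their values were seen. Genes, lists and alternatives were chosen with earlier results of these data known. Alternatives covered probeset summary, dim probesets and genes (below the 25th percentile in both groups), normalization, eBayes options, array weights, reference, covariates, the replicate block and each array left out.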

Additional observations from a re-analysis of the deposited data

Results flagged for a closer look

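Across 20 groups of values (10 genes in 2 groups), 3 held an array whose gap to its neighbour was large for the group's range by Dixon's test, where chance alone marks about 1 in 20. Tumour 4 was the lowest tumour for Ivl, at 10.6, with a gap of 0.76 of the range, and for Evpl, at 6.67, with a gap of 0.75. Tumour 1 was the lowest tumour for Scel, at 8.25, with a gap of 0.72 (limit 0.71 for 5 arrays). Tumour 4 was the one tumour with a high hair follicle level. Without tumour 4 the Ivl difference was 1.88 and the Evpl difference 0.07, and without tumour 1 the Scel difference was -0.53.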

How the results depend on the processing

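The 4 genes called higher against all normal skin (Tgm1, Tgm3, Ivl and Cnfn) and Lor passed in every setting tried except with the keratinocyte list as covariate, under which 1 gene was higher and 0 lower. There the counts over all genes fell from 2959 and 2200 to 481 and 392. The number called lower rose from 1 to 3 with the mean over probesets, with normal single transgenic skin alone as reference and without the 3 arrays high in hair keratins (chosen after seeing the data), and to 2 with array weights, the mean of the 3 normal groups or the hair follicle list as covariate; the added genes were Tgm2 and Scel. With normal double transgenic skin alone as reference the counts over all genes were 1942 and 1244. Leaving out 1 array gave 4 higher, 1 to 2 lower, and 2406 to 2942 and 1612 to 2207 over all genes.

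Evpl turned to -0.046 (mean over probesets), -0.0031 (replicate block) and -0.017 (double transgenic reference), and ran from -0.017 to 0.073 with 1 array left out; Tgm5 turned to 0.27 (double transgenic reference) and Tgm2 to 0.28 (keratinocyte covariate). With the title's number as a replicate block, over tumours and skins 1 to 5, 4 genes were higher and 1 lower; same-numbered deviations correlated between -0.18 and 0.10, so the numbers do not show paired samples.

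Against skin of the same genotype, the mean over probesets gave 2 lower, 2301 lower over all genes and a Ppl difference of 0.15; array weights gave 0 lower, and 943 and 492 over all genes. With 1 array left out, 1 to 4 were higher and 0 to 2 lower, and 503 to 2542 and 323 to 2111 over all genes; Tgm2 ran from -1.01 to 0.16, Evpl from -0.070 to 0.036 and Scel from -0.41 to 0.16.

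Between normal genotypes, the mean over probesets gave 0 higher and 2 lower over all genes, and array weights, no dim probesets and no dim genes gave 0 and 0. With 1 array left out, 0 to 1 of the 10 were lower, and 0 to 187 and 0 to 159 of all genes; Tgm1 ran from -0.86 to 0.41, Tgm2 from -0.54 to 0.64, Ivl from -1.06 to 0.59, Lor from -0.21 to 0.35 and Cnfn from -0.44 to 0.34. Of the pairs within arrays, Tgm1 minus Tgm3 passed with the mean over probesets (-0.91). The number of arrays limits the precision of every value.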

Other observations

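The same 2 tumours were the highest for most of the 10 genes, while the order of the other tumours differed between genes. Some of these places were close, as for Ivl (10.90 and 10.89 in tumours 2 and 5, 10.86 in tumour 3). Tumours 2 and 5 were the 2 highest of the 5 for Tgm1, Tgm2, Tgm3, Tgm5, Ivl, Evpl, Ppl and Cnfn, that is for 8 of 10, where this pair was on top in 11.6% of all 20352 genes; the exceptions were Lor and Scel. The same tumours had the lowest striated muscle levels (5.79 and 5.66) and the highest levels of the lipid coat list (8.80 and 8.84), while tumour 2 had the lowest keratinocyte marker level (10.002). In normal skin, skin 2 was the lowest array for Tgm1, Ivl, Cnfn and Scel and the highest for Tgm2 and Lor. It had the lowest keratinocyte marker level (9.004) and the highest striated muscle level (11.7). Skin 1 was the highest for Tgm1, Ivl and Cnfn and the lowest for Tgm2 and Tgm5, with the lowest muscle level of the skins (10.5) and the highest hair follicle level (9.67). The part of these tissue components in the ranks was not tested.

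The genes most like each called member were found by the root mean square difference between profiles over the 11 arrays, each centred on its gene's mean, among 18251 genes. Closest to Tgm1 were Ankrd22 (0.19) and Blmh (0.21), and closest to Ivl were Blmh (0.17), the bleomycin hydrolase that degrades filaggrin peptides, and Nhp2 (0.17), a protein of small nucleolar ribonucleoproteins. Tgm3 was nearest to the cytokine Il24 (0.34) and the stromelysin Mmp10 (0.35), Cnfn to the glutaredoxin Glrx (0.23) and the anion transporter Slc26a9 (0.25), and Lor to Shisa3 (0.17) and Smim11 (0.17). Over all genes compared, the median of this difference was 1.03 for Tgm1 and Ivl, 1.23 for Tgm3, 1.08 for Cnfn and 0.50 for Lor. The nearest of so many genes lie below that median by selection. These profiles also hold the difference between tumours and skins for which the members were called. That difference was 1.81 for Tgm1, 1.85 for Ankrd22 and 1.86 for Blmh.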
